A study of Mus musculus with 9 samples.

Results

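The interferon-stimulated genes described here are a list of 36 mouse genes, given by name, that interferons are known to switch on. Of the 36, 34 had a probe set annotated to a single gene, and these 34 stand among 18193 such genes on the array. Each gene was read from its probe set with the highest mean over all 9 arrays. A mean signal of at least 5.91 on the log2 scale was required for testing, which kept 30 of the 34 members and 12765 of the 18193 genes. Oasl2, Mx1, Mx2 and Usp18 lay below that level, and their values are given without a test. Isg15 was covered only by a probe set shared with other symbols and Ifi44 by none, so neither has a value here.

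The samples were Affymetrix mouse genome arrays of retina from female BALB/c mice (spelled Babl/c in the labels), an albino strain, aged 10 weeks. Controls were kept in a dark environment, and the other mice lived under white LED lamps (light-emitting diodes) of colour temperature 2954K, a warm white, or 7378K, a cold white. Every group was kept for 14 days with 12 h on and 12 h off each day, and 1000 lx is stated for the LED lamps. The labels give the controls that same cycle without an illuminance, which leaves unclear whether any light reached them. Each group had 3 arrays, each array holding a pool of 3 right-eye retinas described as neurosensory layer freed of pigment epithelium, so that p-values measure the spread between pools. In bulk tissue, more cells of a type and more RNA per cell cannot be told apart.

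Interferons are secreted proteins that bind paired receptors and act through JAK kinases. Type I interferons assemble a complex of STAT proteins and IRF9 that binds the interferon-stimulated response element in promoters, whereas interferon gamma acts mainly through the gamma-activated site. The products detect foreign RNA, block viral entry, translation and release, attack intracellular vacuoles or feed back on the pathway, and in retina they are known from microglia and glia under infection, injury and degeneration.

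Promoter sequence shows what part of the list has in common. RefSeq promoter windows (build GRCm38.p6, from 250 bases before to 50 bases after the gene start) were at hand for 28 of the 36 members. The core of the interferon-stimulated response element, searched on both strands as GAAANNGAAA, occurred in 16 of these 28 members (57.1%), against 1079 of 27018 genes (3.99%) with a window of the same length. The gamma-activated site core TTCNNNGAA occurred in 9 of 28 members (32.1%), against 9.55% of all genes. Members with both cores numbered 5, and in 2 of them, Bst2 and Ifitm3, the matches overlapped. A match is a run of letters and does not show that a factor binds there. The stretches below belong to 4 members that rose under LED light (Gbp2, Bst2, Ifit1, Igtp), to Stat2, whose mean was lower under both lights, and to Irgm1, which did not pass the test; capitals mark the response element core, overlapping matches run together, and each stretch reads 5′ to 3′ in the direction of its gene.
Gbp2, chr3:142620584-142620633, plus strand: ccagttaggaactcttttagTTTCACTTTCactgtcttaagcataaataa
Bst2, chr8:71537567-71537622, minus strand: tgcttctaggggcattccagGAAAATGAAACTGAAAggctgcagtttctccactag
Ifit1, chr19:34640765-34640833, plus strand: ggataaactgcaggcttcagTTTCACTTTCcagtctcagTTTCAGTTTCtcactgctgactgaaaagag
Igtp, chr11:58199502-58199551, plus strand: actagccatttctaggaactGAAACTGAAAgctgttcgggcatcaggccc
Irgm1, chr11:48871421-48871470, minus strand: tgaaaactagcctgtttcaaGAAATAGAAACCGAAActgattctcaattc
Stat2, chr10:128270256-128270305, plus strand: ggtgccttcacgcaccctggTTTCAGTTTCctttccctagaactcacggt
Counted from the gene start, the first capital lay at -59 in Gbp2, -130 in Bst2, -104 in Ifit1, -34 in Igtp, -30 in Irgm1 and -222 in Stat2. Ifit1 held 2 separate matches, and Bst2 and Irgm1 each held 2 that overlapped. In Bst2 the lower-case letters ttccag just before the capitals begin a gamma-activated site core that runs into the response element core.

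Arrays differed in how far 3′ signal exceeded 5′ signal, and in the signal of lens, extraocular muscle and pigment epithelium genes. Median array signal was 6.77 to 7.03 on the log2 scale. The gap between 3′ and 5′ probe sets of Gapdh and beta-actin, a measure of lost 5′ ends, was 0.20 to 0.42 in controls, 2.78, 0.21 and 1.05 under 2954K (arrays 1 to 3), and 1.55 to 1.80 under 7378K. By this gap the 7378K arrays did not overlap the controls, and the same held for the gap of dap, a bacterial transcript spiked in for labelling, at 1.08 to 1.72 in controls and 2.66 to 2.76 under 7378K (2.88, 1.12 and 2.05 under 2954K). The parts of RNA quality and of labelling in these gaps were not told apart, and neither was tested beyond the covariate values given with the members below. The median of 4 lens genes was 14.68, 12.02 and 9.86 in the third array of the control, 2954K and 7378K groups and 2.44 to 6.55 in the other 6 arrays. The median of 2 extraocular muscle genes was 9.04 on control 3 and 6.79 to 7.66 on the other arrays. The median of 6 pigment epithelium and melanocyte genes was 8.79 to 11.87 and their summed signal (log2 of the sum) 13.46 to 15.31, so the labelled separation from the pigment epithelium was not complete by this measure. Tyrp1, Dct and Pmel were highest of all arrays on 2954K 3, whereas Rpe65, Lrat and Ttr were lower there than on the other 2954K arrays.

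Under both lights, interferon-stimulated genes lay mostly above control, and few passed the test. Gbp2, a guanylate-binding GTPase, and Bst2, the tether that holds budding virus at the cell surface, rose under both lights. Irf9, the DNA-binding partner of STAT proteins, and Ifitm3, a membrane protein that blocks viral entry, rose under 7378K light. Gbp3, Igtp and Ifit1 rose with both lights averaged. The limma fit of all 9 arrays, adjusted by Benjamini-Hochberg over 12765 genes, was used for every call, at an adjusted p under 0.05.

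The first comparison asked how retinas under 2954K light differed from those in the dark environment. Of the 30 members tested, 2 rose and 0 fell, where 1.22% of all genes tested were called (1.03% risen and 0.188% fallen). Bst2, called here, and Ifit1 and Rtp4 had control means below the level required for testing. They passed the filter only through their LED arrays, which limits what their part in these counts can show. An unadjusted p under 0.05 was reached by 15 risen members and 0 fallen members, where 7.61% of all genes rose and 5.44% fell by that rule. The difference was above 0 for 27 of 30 members and for 51.8% of all genes. The median member difference was 0.61 on the log2 scale, and the median over all genes was 0.01. All 3 arrays lay above all 3 controls for 12 of 30 members, where 7.68% of all genes did so, and below all controls for 0 members, where 7.53% did so.

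The second comparison asked the same of 7378K light, against the same 3 control arrays. Of 30 members, 4 rose and 0 fell, where 3.52% of all genes were called (2.36% risen and 1.16% fallen). Members with an unadjusted p under 0.05 numbered 15 risen, against 13.8% of all genes, and 1 fallen, against 8.81%. Bst2, called here, and Ifit1 and Rtp4, counted at that p, passed the filter only through their LED arrays. The difference was above 0 for 24 of 30 members and for 56% of all genes, with a median of 0.49 for members and 0.04 for all genes. Groups did not overlap, with LED arrays higher, for 14 members, where 21.6% of all genes did so, and with LED arrays lower for Stat2 alone, where 14.8% did so.

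With both LED groups averaged, 7 of 30 members rose and 0 fell, where 3.45% of all genes were called (2.41% risen and 1.05% fallen). An unadjusted p under 0.05 was reached by 18 risen members, against 12.9% of all genes, and by 0 fallen members, against 8.62%. Bst2 and Ifit1, both called, and Rtp4, counted at that p, passed the filter only through their LED arrays. Their averaged differences could therefore only lie above 0. The 6 LED arrays all lay above the 3 controls for 8 members, where 5.84% of all genes did so, and below them for 0 members, where 4.68% did so. The difference was above 0 for 27 members, against 54% of genes. The median difference was 0.50 for members and 0.02 for all genes. The contrasts against control share their control arrays and are not independent of each other: 23 members lay above control under both lights and 2 below under both.

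**Figure D1:**
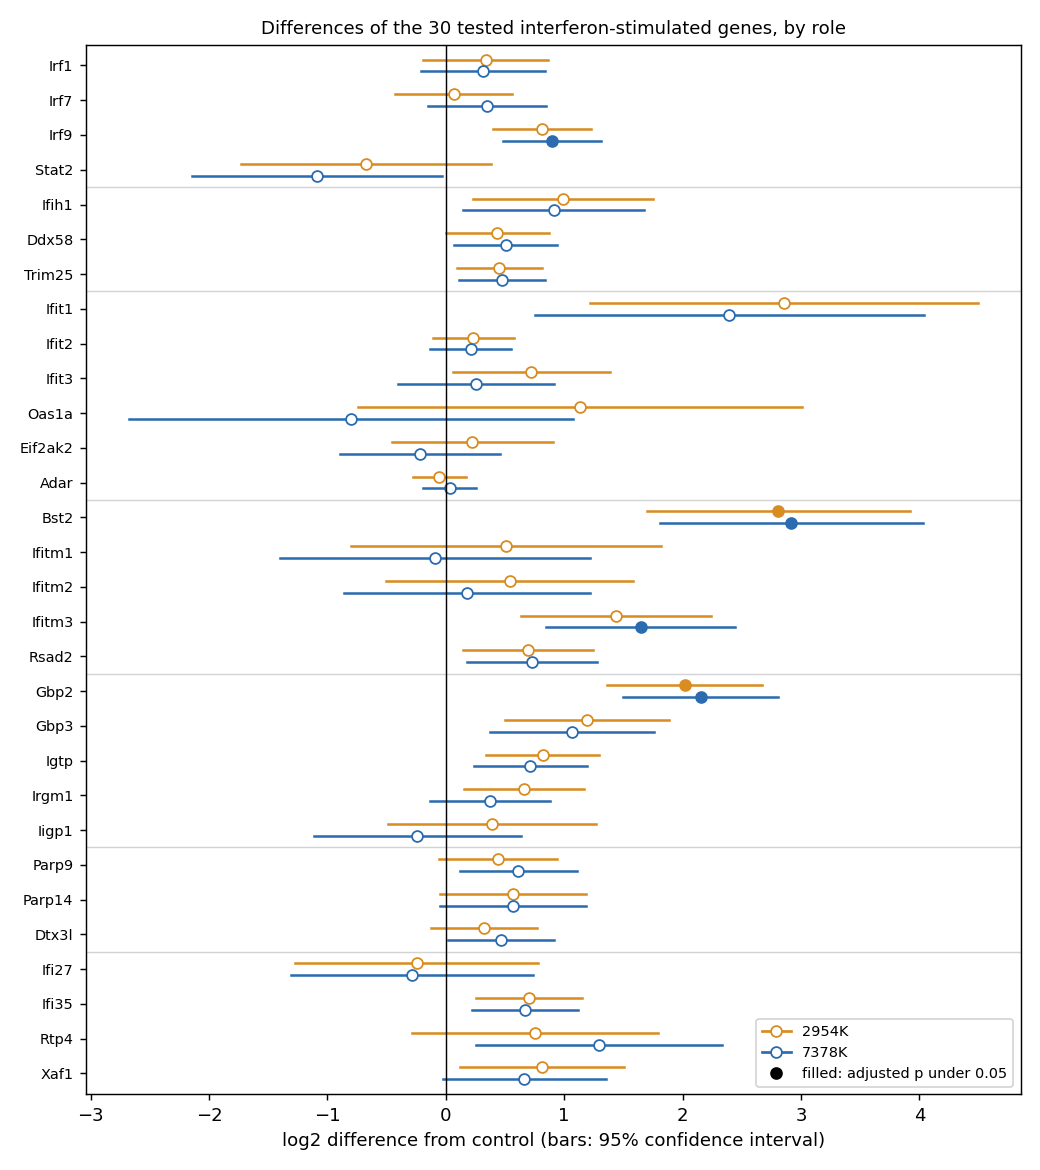
Log2 difference from control of the 30 tested members (points) with 95% confidence intervals (bars), for 2954K (orange) and 7378K (blue) light, grouped by role with grey lines between groups; filled points passed an adjusted p under 0.05. Filled points are Bst2 and Gbp2 under both lights and Irf9 and Ifitm3 under 7378K, and Stat2 and Ifi27 lay left of 0 under both lights. Control means of Bst2, Ifit1 and Rtp4 lay below the level required for testing, so their plotted differences are no measured sizes.

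Of the interferon-inducible GTPases, which act on intracellular vacuoles and membranes, 5 of 7 were tested and 3 rose with both lights averaged (Gbp2, Gbp3 and Igtp). The Gbp2 log2 signal was 6.39, 5.59 and 6.97 in controls 1 to 3, 8.11, 8.47 and 8.43 under 2954K, and 8.61, 8.33 and 8.48 under 7378K. Every LED array lay above every control, and the LED arrays lay close together. Gbp2 was 4.05-fold higher under 2954K light (log2 difference 2.02 ± 0.30 SE, adjusted p = 0.00501) and 4.45-fold higher under 7378K light (2.15 ± 0.30, adjusted p = 0.00203). The second Gbp2 probe set moved the same way, by 2.67 and 2.43. In fits that left out each array in turn, Gbp2 kept its call in both comparisons, with adjusted p up to 0.0352 under 2954K and 0.0178 under 7378K. With the 3′ to 5′ gap of dap as a covariate, the 7378K call of Gbp2 was lost at a similar size (2.06, adjusted p = 0.12).

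Gbp3 lies 47450 bases from Gbp2 on chromosome 3 and encodes another guanylate-binding protein. Its signal was 6.85, 6.55 and 7.16 in controls, 7.90, 7.81 and 8.43 under 2954K, and 7.37, 7.76 and 8.62 under 7378K. All LED arrays lay above all controls, 7378K array 1 by the least. Averaged over both lights Gbp3 rose by 1.13 ± 0.28 SE (adjusted p = 0.0467), and the separate differences of 1.19 and 1.07 did not pass (adjusted p = 0.12 and 0.0853). The averaged call was lost without control 1 or 2, 2954K 1 or 3, or 7378K 2 or 3, one at a time, with differences of 0.95 to 1.17 and adjusted p of 0.0504 to 0.222. It was also lost with the Gapdh and beta-actin covariate (adjusted p = 0.251), the dap covariate (0.411), no intensity filter (0.0704), probe sets averaged per gene (0.0752), no intensity trend (0.084) and the third arrays left out (0.115).

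Igtp and Irgm1, both on chromosome 11, encode immunity-related GTPases, a family that acts against the vacuoles of parasites. Igtp signal was 7.62, 7.04 and 7.67 in controls, 7.96, 8.30 and 8.52 under 2954K, and 8.09, 8.14 and 8.23 under 7378K. The groups did not overlap, and controls 1 and 3 came closest to 2954K 1. Igtp rose by 0.76 ± 0.19 SE with both lights averaged (adjusted p = 0.0493), and its differences of 0.82 and 0.71 under each light did not pass alone. The averaged call was lost on leaving out any one of 7 arrays (all but 2954K 1 and 2), at 0.57 to 0.88 and adjusted p of 0.0509 to 0.242. It was also lost with the Gapdh and beta-actin covariate (adjusted p = 0.133), the dap covariate (0.292), no intensity filter (0.078), probe sets averaged (0.0727), probe sets of the _x_at and _s_at kinds left out (0.0511), no intensity trend (0.0611) and the third arrays left out (0.186). Irgm1 differed by 0.66 and 0.37 and Iigp1, a relative on chromosome 18, by 0.39 and -0.24, without a call. Mx1 and Mx2, dynamin-like GTPases that trap viral particles, are annotated by RefSeq as transcribed pseudogenes in this assembly and lay below the level required for testing. Mx1 signal was 5.34, 4.27 and 3.10 in controls, 5.06, 5.52 and 5.60 under 2954K, and 5.10, 5.83 and 6.56 under 7378K, so the LED groups overlapped the controls. Mx2 signal was 3.39, 2.95 and 3.64 in controls, 3.89, 4.50 and 5.40 under 2954K, and 4.17, 3.47 and 3.73 under 7378K, so that the 2954K arrays lay above the controls and the 7378K arrays overlapped them.

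Membrane and virus-assembly effectors included Bst2, Rsad2 and the Ifitm cluster, and 2 of these 5 rose with both lights averaged. Bst2 signal was 5.58, 3.78 and 6.36 in controls, 7.71, 8.05 and 8.39 under 2954K, and 7.93, 8.33 and 8.21 under 7378K. All 6 LED arrays lay close together and above every control, while the controls were spread widely, with control 2 the lowest. Bst2 passed the filter only through its LED arrays: the control mean of 5.24 lay below the level required for testing, so folds are bounds against that level: Bst2 was at least 4.42-fold higher under 2954K light (log2 difference 2.81 ± 0.51 SE, adjusted p = 0.0193) and at least 4.76-fold higher under 7378K light (2.92 ± 0.51, adjusted p = 0.00883). The 2954K call was lost without control 1 (adjusted p = 0.0508) or 2954K 3 (0.111), and the 7378K call without 7378K 2 (0.0524). With the Gapdh and beta-actin gap as a covariate the differences were 2.90 (adjusted p = 0.0766) and 3.04 (0.0853), and with that of dap 2.61 (0.079) and 2.50 (0.3).

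The 3 Ifitm genes lie together on chromosome 7 (chr7:140954837-141010744, GRCm38.p6) and did not move alike. Ifitm3 signal was 9.03, 8.83 and 10.41 in controls, 10.93, 10.23 and 11.43 under 2954K, and 11.24, 10.99 and 10.98 under 7378K. Control 3 was far above the other controls and above 2954K 2, whereas every 7378K array lay above it. Ifitm3 was 3.13-fold higher under 7378K light (1.64 ± 0.37 SE, adjusted p = 0.0317) and 2.71-fold higher, without passing, under 2954K light (1.44 ± 0.37, adjusted p = 0.103). The 7378K call was lost without control 1 or 2 or any one 7378K array (1.35 to 1.69, adjusted p of 0.0973 to 0.143), and with either gap as a covariate (1.31, adjusted p = 0.349, and 0.80, adjusted p = 0.676). With the third array of each group left out, the differences were larger, at 1.65 (adjusted p = 0.015) under 2954K and 2.19 (adjusted p = 0.00257) under 7378K.

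Ifitm1 signal was 7.28, 6.93 and 9.16 in controls, 8.04, 7.26 and 9.59 under 2954K, and 7.25, 7.92 and 7.94 under 7378K. Ifitm2 signal was 7.09, 7.20 and 9.28 in controls, 8.60, 7.83 and 8.77 under 2954K, and 8.03, 7.80 and 8.29 under 7378K. In both genes the third array was the highest of its group in every group, as it was for the lens genes above, and the part of carried-over tissue in these values was not tested. Neither gene was called (differences of 0.50 and -0.09 for Ifitm1 and of 0.54 and 0.18 for Ifitm2), nor was Ifitm2 without the third arrays (1.06, adjusted p = 0.283, and 0.77, adjusted p = 0.29). Rsad2, whose product viperin disturbs viral assembly at lipid droplets, read 6.68, 6.75 and 6.32 in controls, 6.99, 7.33 and 7.52 under 2954K, and 7.31, 7.27 and 7.34 under 7378K. All LED arrays lay above the controls, and the differences of 0.70 and 0.72 did not pass (adjusted p = 0.264 and 0.124). Dimmer Rsad2 probe sets, below the level required for testing on average, did not share this rise. One differed by 0.08 and 0.09 and another by -1.85 and 0.38.

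**Figure D2:**
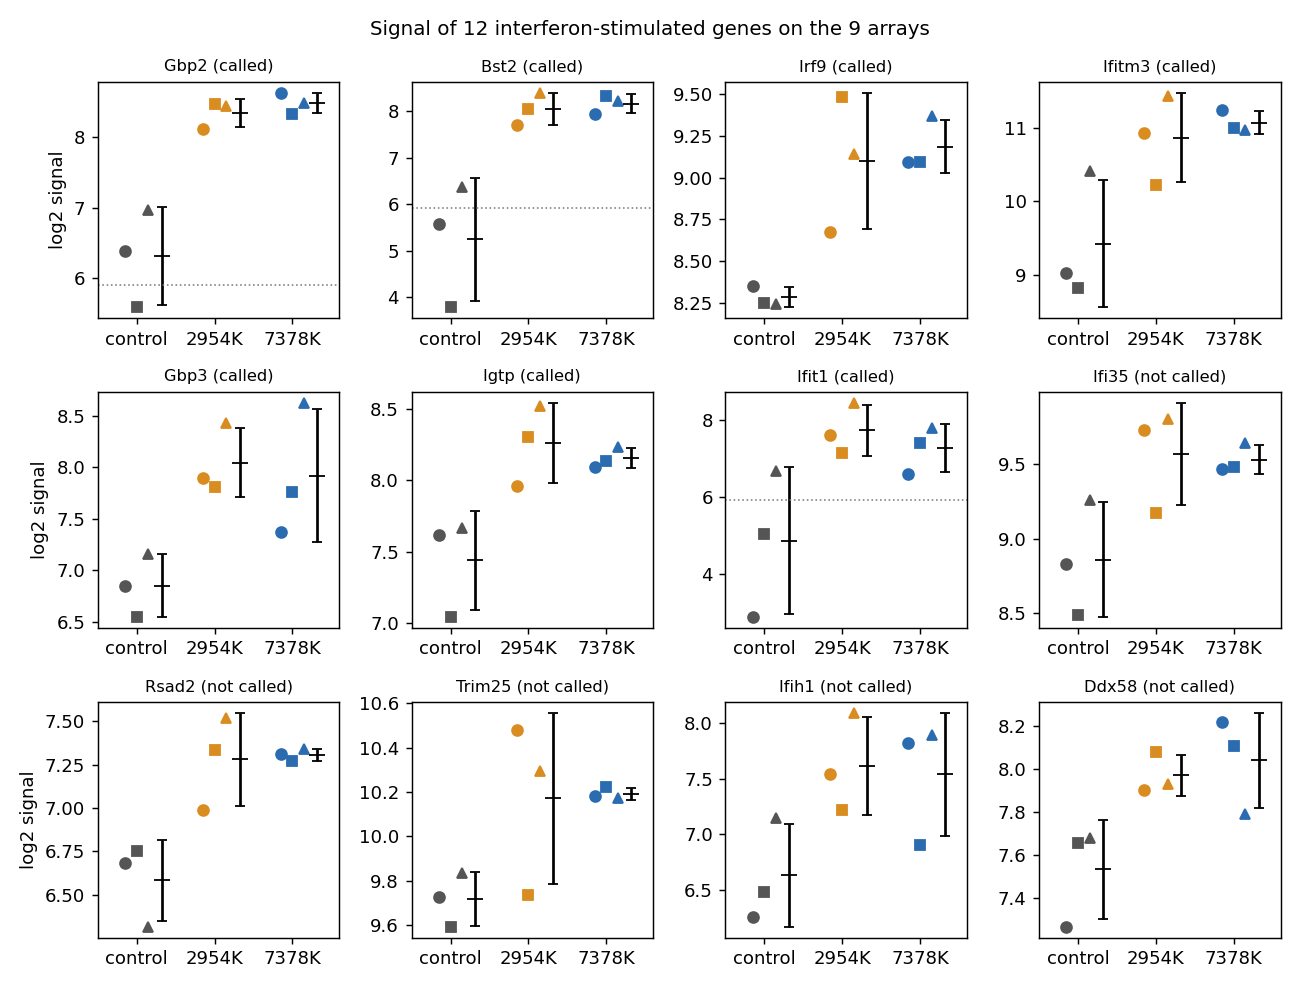
Log2 signal of 12 members on the 9 arrays by group (circle, square and triangle for arrays 1, 2 and 3 of a group), with the group mean and SD beside the points (n = 3) and the level required for testing as a dotted line where the panel reaches it; each panel has its own axis, and called means an adjusted p under 0.05 in any comparison with control. Gbp2, Bst2, Irf9, Gbp3, Igtp, Rsad2 and Ddx58 had no overlap between the controls and either LED group.

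Of the 4 transcription factors tested, 1 was called. Irf9 signal was 8.35, 8.26 and 8.25 in controls, 8.67, 9.48 and 9.14 under 2954K, and 9.09, 9.09 and 9.37 under 7378K. The controls lay close together and below all LED arrays, of which 2954K 1 was the lowest. Irf9 was 1.86-fold higher under 7378K light (0.90 ± 0.19 SE, adjusted p = 0.0257) and 1.76-fold higher under 2954K light without passing (0.81 ± 0.19, adjusted p = 0.0759). The 7378K call was lost on leaving out any one control or 7378K array, at 0.81 to 0.94 and adjusted p of 0.0539 to 0.116, and was kept with the Gapdh and beta-actin covariate (1.32, adjusted p = 0.00226) and the dap covariate (1.43, adjusted p = 0.00916). With those covariates the 2954K difference passed as well, at 1.13 (adjusted p = 0.0038) and 1.06 (adjusted p = 0.00737).

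Stat2, which joins Irf9 in the complex formed after type I interferon, had the lowest difference on the list under both lights. Its signal was 7.11, 7.27 and 7.90 in controls, 5.75, 7.45 and 7.06 under 2954K, and 5.47, 6.59 and 6.96 under 7378K. The 7378K arrays all lay below the controls, and 2954K array 2 lay among them. The differences of -0.67 ± 0.48 and -1.09 ± 0.48 SE did not pass (adjusted p = 0.573 and 0.208), and a second, dimmer Stat2 probe set differed by -1.03 and -1.39. With the Gapdh and beta-actin covariate the Stat2 differences were 0.04 and -0.14 (adjusted p = 0.987 and 0.967), and with that of dap -0.23 and -0.12. Irf1, a factor induced by interferon gamma, differed by 0.34 and 0.31, and Irf7, which amplifies interferon production, by 0.07 and 0.35, with no call.

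The RNA sensors Ifih1 (MDA5) and Ddx58 (RIG-I) and the ubiquitin ligase Trim25, which activates RIG-I, were above control on average under both lights, with 0 of 3 called in limma and an unadjusted p under 0.05 for each in each comparison. Ifih1 signal was 6.26, 6.48 and 7.15 in controls, 7.55, 7.22 and 8.09 under 2954K, and 7.82, 6.90 and 7.90 under 7378K. Control 3 lay above 7378K 2, and the differences were 0.99 and 0.91 (adjusted p = 0.256 and 0.155). Ddx58 signal was 7.27, 7.66 and 7.68 in controls, 7.90, 8.08 and 7.93 under 2954K, and 8.22, 8.11 and 7.79 under 7378K, without overlap, and the differences were 0.44 and 0.51 (adjusted p = 0.38 and 0.164). Trim25 signal was 9.73, 9.59 and 9.83 in controls, 10.48, 9.74 and 10.29 under 2954K, and 10.18, 10.22 and 10.17 under 7378K. The Trim25 differences were 0.45 and 0.47 (adjusted p = 0.267 and 0.124), and another bright probe set of the gene differed by -0.08 and -0.24, so its probe sets did not share a direction.

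Of the effectors that act on RNA, 6 of 7 were tested and Ifit1 rose with both lights averaged. The Ifit genes, whose products bind viral RNA and block its translation, sit side by side on chromosome 19 (chr19:34550550-34650009, GRCm38.p6). Ifit1 signal was 2.89, 5.03 and 6.68 in controls, 7.61, 7.13 and 8.43 under 2954K, and 6.59, 7.40 and 7.79 under 7378K. Controls 1 and 2 lay below the level required for testing, and control 3 lay just above 7378K 1. Ifit1 passed the filter only through its LED arrays, and its control mean of 4.87 lay below the level required for testing. Ifit1 was called with both lights averaged (adjusted p = 0.0495), and the fitted difference of 2.63 ± 0.65 SE is no measured size for that reason. Under each light alone it was at least 3.52-fold (adjusted p = 0.114) and at least 2.56-fold higher (adjusted p = 0.0958) against that level, without passing. The averaged call was lost on leaving out any one of 7 arrays (all but control 3 and 2954K 2), at 1.64 to 2.79 and adjusted p of 0.0618 to 0.157. It was also lost with the Gapdh and beta-actin covariate (adjusted p = 0.318), the dap covariate (0.463), no intensity filter (0.0664), probe sets averaged (0.0831), probe sets of the _x_at and _s_at kinds left out (0.0518) and no intensity trend (0.113).

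The neighbours of Ifit1 were not called. Ifit2 signal lay between 8.54 and 9.05 on all arrays, with differences of 0.23 and 0.21. Ifit3 signal was 7.46 to 7.77 in controls, 8.12 to 8.71 under 2954K and 7.21 to 8.54 under 7378K, with differences of 0.72 and 0.25 (adjusted p = 0.338 and 0.662). Adar, which edits double-stranded RNA, lay between 10.77 and 11.12 on all arrays, and its 95% confidence intervals were -0.28 to 0.17 under 2954K and -0.19 to 0.26 under 7378K. Eif2ak2 (PKR), a kinase that stops translation on binding double-stranded RNA, differed by 0.22 and -0.22.

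The oligoadenylate synthetase family was represented by Oasl2 and Oas1a, and neither was called. Oasl2 lay below the level required for testing, with 1.53, 2.44 and 5.88 in controls, 5.79, 6.45 and 6.76 under 2954K, and 6.59, 7.04 and 6.96 under 7378K. Control 3 was far above the other controls and above 2954K 1, and every 7378K array lay above it. Against the level required for testing, Oasl2 was at least 1.34-fold higher under 2954K and at least 1.94-fold higher under 7378K. When no level was required it did not pass under either light (adjusted p = 0.209 and 0.067), and none of the 4 dim members was called in any comparison. Oas1a, which makes the second messenger that activates RNase L, read 6.63, 4.16 and 7.62 in controls, 7.13, 7.32 and 7.36 under 2954K, and 7.11, 4.002 and 4.89 under 7378K. Controls and 7378K arrays spread widely, and the differences of 1.13 and -0.80, each ± 0.86 SE, were not called.

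Of the ubiquitin-like and ADP-ribose members, Parp9, Parp14 and Dtx3l lie in 1 cluster on chromosome 16, where Parp9 and Dtx3l overlap, and 0 of 3 were called in limma, with an unadjusted p under 0.05 for 0 under 2954K and 2 under 7378K. Parp9 and Dtx3l form a pair that modifies proteins with ubiquitin and ADP-ribose, and Parp14 is a related transferase. Their differences were 0.32 to 0.57 under 2954K and 0.47 to 0.61 under 7378K. Parp14 signal was 6.79 to 6.81 in controls, 7.03 to 7.75 under 2954K and 6.92 to 7.78 under 7378K, with no overlap with the controls. All 7378K arrays also lay above the controls for Parp9 (7.98 to 7.99 against 7.26 to 7.45) and Dtx3l (7.83 to 7.99 against 7.31 to 7.50). Usp18, the protease that removes ISG15 from proteins and dampens the receptor, read 3.67, 5.89 and 5.70 in controls, 6.02, 5.64 and 7.45 under 2954K, and 5.40, 6.33 and 6.60 under 7378K. These overlapping values stayed below the level required for testing on average.

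The remaining induced proteins gave 0 limma calls among 4 tested, with an unadjusted p under 0.05 for 2 under each light. Ifi35, which associates with other interferon-induced proteins, read 8.83, 8.49 and 9.25 in controls, 9.72, 9.17 and 9.80 under 2954K, and 9.46, 9.48 and 9.64 under 7378K. The 7378K arrays lay above all controls and 2954K 2 did not. Differences were 0.71 and 0.67 (adjusted p = 0.156 and 0.0911), and the dimmest of the 3 Ifi35 probe sets differed by -0.18 and -0.53. Rtp4, a chaperone of receptors, differed by 0.75 and 1.30, but its control mean lay just below the level required for testing. Against that level Rtp4 was at least 1.69-fold higher under 2954K and at least 2.45-fold higher under 7378K, without a call. A second, dimmer Rtp4 probe set differed by 0.13 and -0.55. Xaf1, a protein that promotes cell death, differed by 0.81 and 0.66. Ifi27, a small mitochondrial protein, differed by -0.25 and -0.29, while its second probe set differed by 1.23 and 0.07.

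The third comparison set the lights against each other. In limma no member and no other gene was called (0 of 30 and 0% of 12765). Without adjustment, 320 genes (2.51%) were higher and 199 (1.56%) lower under 7378K at a p under 0.05, among them 1 member, Oas1a, which was lower. Oas1a was lower by 1.93 on the log2 scale under 7378K (95% confidence interval -3.81 to -0.06, adjusted p = 0.978 in limma). Its 7378K arrays all lay below its 2954K arrays, as for 3.28% of all genes, and no member had all 7378K arrays above, as 5.27% of genes did. The interval of the 7378K minus 2954K difference was -0.52 to 0.79 for Gbp2, -1.002 to 1.22 for Bst2, -0.33 to 0.50 for Irf9 and -0.59 to 1.01 for Ifitm3, so differences of these sizes could not be told from 0. The median member difference was -0.03, against 0.03 over all genes, and 12 of 30 members were above 0, against 56.4% of genes. The difference from control was the larger under 2954K for 18 members and under 7378K for 12.

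Values varied between pools of a group in a shared way. Control 3 was the highest control for 23 of 30 members, 2954K 3 the highest 2954K array for 19 and 7378K 3 the highest 7378K array for 18, where 40.3%, 28.9% and 30.4% of all genes had those arrays highest. The median member signal was 7.31, 7.27 and 7.67 in controls, 7.90, 8.01 and 8.41 under 2954K, and 7.87, 7.95 and 8.22 under 7378K, so the lowest LED array still lay above the highest control. The 4 lens genes were also highest on the third arrays, and the 2 extraocular muscle genes on control 3. The part of either tissue in the members' values was not tested. Without the third array of each group, Bst2 and Gbp2 kept their calls under both lights, Ifitm3 was called under both, and Irf9 was lost (0.77, adjusted p = 0.405, and 0.79, adjusted p = 0.231).

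**Figure D3:**
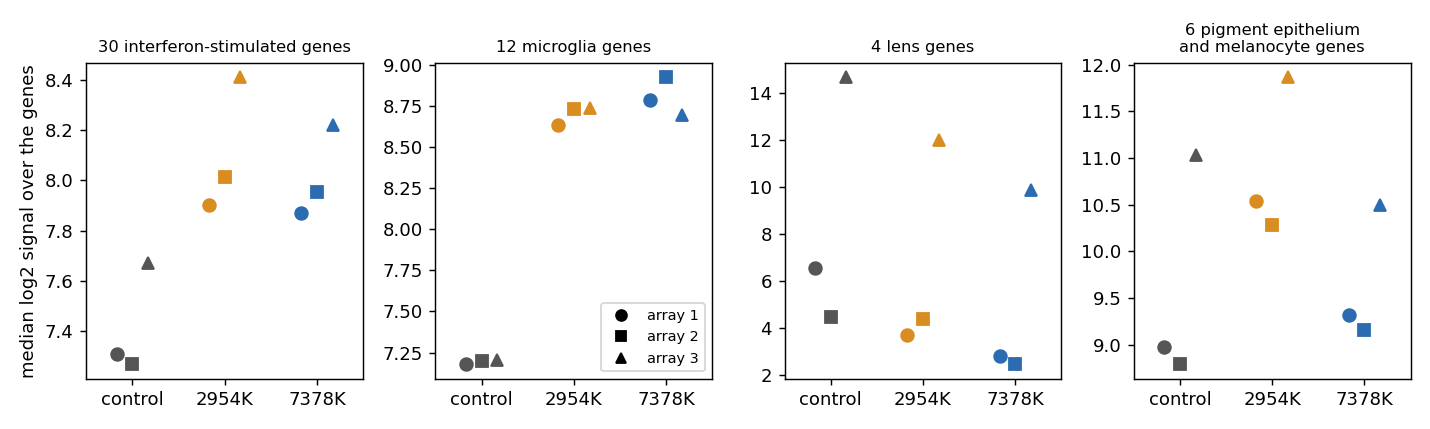
Median log2 signal on each array (circle, square and triangle for arrays 1, 2 and 3 of a group) over the 30 tested members, 12 microglia genes, 4 lens genes, and 6 pigment epithelium and melanocyte genes; each panel has its own axis. Members ran from 7.27 to 7.67 in controls and from 7.87 to 8.41 under LED light, microglia genes from 7.18 to 7.20 and from 8.63 to 8.93, and lens genes were highest on the third array of each group.

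Most tested microglia genes rose under each light, whereas among blood leukocyte, endothelial and Müller glia genes only Crym and Aqp4 were called. Of 15 microglia genes listed, 14 had a probe set and 12 were tested, of which 8 rose under 2954K light and 9 under 7378K light. Their median signal was 7.18 to 7.20 in controls, 8.63 to 8.74 under 2954K and 8.69 to 8.93 under 7378K, without overlap, and their summed signal (log2 of the sum) was 11.38 to 11.87, 13.10 to 13.20 and 13.23 to 13.35. C1qa, a complement gene of microglia, rose by 2.32 and 2.38, whereas P2ry12 differed by -0.08 and -0.44 and Tmem119 and Itgam lay below the level required for testing. Aif1 and C1qc, both risen, had control means of 5.35 and 5.02, below that level. They passed the filter only through their LED arrays. Of 9 lymphocyte and blood leukocyte genes with a probe set, 7 lay below that level, among them Cd3e, Cd3g, Cd79a and Ccr2, and 0 of the 2 tested were called in limma, with 0 at an unadjusted p under 0.05. Of 7 endothelial genes 0 were called in limma, with 1 higher and 1 lower at an unadjusted p under 0.05 under 2954K and 1 lower under 7378K. Of 7 Müller glia genes Crym and Aqp4 rose under both lights. The part of microglia in the members' values was not tested.

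The upstream pathway was read from lists of ligands, receptors, transcription factors, adaptors and inhibitors. All 6 interferon genes with a probe set (Ifna1, Ifna2, Ifna4, Ifnab, Ifnb1 and Ifng) lay below the level required for testing. Of 9 receptor subunits and JAK kinases 0 were called in any limma comparison, with an unadjusted p under 0.05 for 3 higher under 2954K and 1 higher under 7378K. Of the 5 other transcription factors tested only Stat3, which signals for cytokines of the interleukin-6 family, rose, by 1.54 (adjusted p = 3.85e-06) and 1.82 (adjusted p = 7.76e-07). Of 5 adaptors and sensors tested Myd88, the adaptor of Toll-like and interleukin-1 receptors, rose by 0.85 and 0.83 (adjusted p = 0.0249 and 0.0173), and 6 further ones lay below the level required for testing. Of 6 negative regulators tested, Socs3, which inhibits JAK kinases, rose by 3.34 (adjusted p = 3.85e-06) and 3.97 (adjusted p = 7.76e-07). Ptpn2, a phosphatase of JAK and STAT proteins, rose by 0.64 (adjusted p = 0.0387) and 0.84 (adjusted p = 0.00437). Socs3 signal was 6.74 to 7.33 in controls, 9.97 to 10.74 under 2954K and 10.82 to 11.18 under 7378K, so the groups were far apart.

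A further list of 36 genes that interferon induces, none of them members, had 34 with a probe set and 20 tested. B2m, which encodes the shared subunit of MHC class I molecules, and Gbp7 rose under 2954K light, and B2m, Gbp7, Gbp6, Ifi30 and Pml rose under 7378K light, with 0 fallen under either. B2m signal was 9.68, 9.71 and 10.54 in controls, 11.52, 11.55 and 11.94 under 2954K, and 11.41, 11.61 and 11.61 under 7378K. B2m was 3.23-fold higher (adjusted p = 0.000989) and 2.96-fold higher (adjusted p = 0.00129), with all LED arrays above all controls. The median difference of these 20 genes was 0.61 and 0.59, beside 0.01 and 0.04 for all genes. Gbp6, another guanylate-binding protein, was 3.46-fold higher under 7378K (adjusted p = 0.0317) and 3.56-fold higher without passing under 2954K (adjusted p = 0.0513).

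The promoter match was set against the response as a description. Among the 25 tested members with a window, the 15 with a response element core had a median difference of 0.71 with both lights averaged (range -0.88 to 2.86, 14 above 0). The 10 without one had a median of 0.36 (range -0.01 to 0.86, 9 above 0). Bst2 and Ifit1, at the top of the range with a core, passed the filter only through their LED arrays. Their differences are no measured sizes, and no test was run between the classes. Irf9, called under 7378K, had neither core in its window, and Stat2 had a response element core and the lowest difference. Of the 7 members called with both lights averaged, 6 held the core: Bst2, Ifit1, Gbp2, Ifitm3, Gbp3 and Igtp. In Gbp3 a pair of overlapping matches began at -45 from the start, and in Ifitm3 both matches lay after the start.

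**Figure D4:**
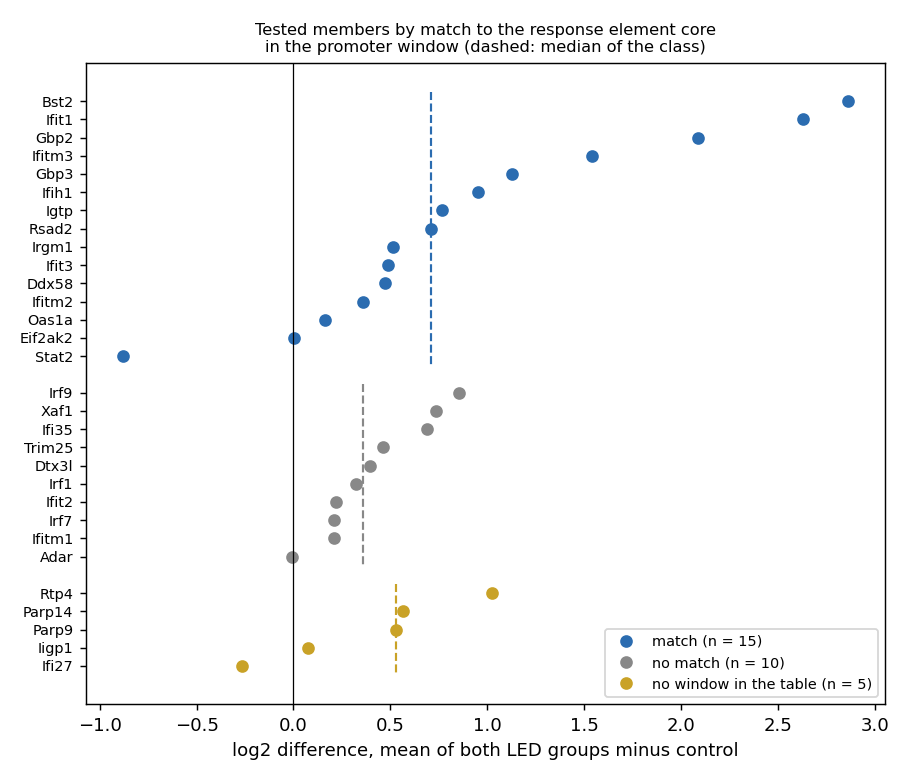
Log2 difference between the mean of both LED groups and control for the 30 tested members, by whether the promoter window held the response element core (blue, n = 15), did not (grey, n = 10) or was not in the table (yellow, n = 5); dashed lines are class medians. Medians were 0.71 with a match and 0.36 without, and the ranges of these classes overlapped. Control means of Bst2, Ifit1 and Rtp4 lay below the level required for testing, so their plotted differences are no measured sizes.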

How the data were processed

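Retinal RNA from 9 pools was hybridised to 1 array each. The deposited values were log2 signals per probe set, 45101 of them, with 0 missing. Per the submitters' processing notes, MAS5 and affy were used, with no version, role or order given in the sources used here. The authors' scaling was read from the values, since linear signals averaged 500.0 on every array after trimming, and nothing more was scaled. Detection calls were not used. Standard errors came from the spread between arrays of a group, pooled in part over all tested genes by the fit.

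Genes were named from the platform annotation: 34945 probe sets had 1 symbol, 932 several, 9160 none and 64 were controls. RefSeq records (GRCm38.p6) were matched by gene identifier for 34741. Genes dimmer than the 40th percentile (5.91) were left out. Group means were fitted over all 9 arrays with limma 3.58.1 (R 4.3.3, package data.table, version 1.17.8; lmFit, contrasts.fit, eBayes with an intensity trend) and adjusted by Benjamini-Hochberg over 12765 genes. The fit was tested on simulated data with independent noise per gene and array, which checks the code and not the calls made here. Figures were drawn with matplotlib 3.10.9.

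Members and gene lists were chosen with earlier results of these data known. Values of every array were given for members called in any comparison, for the members of smallest p with both lights averaged up to 12 in all, and for dim members whose group means differed by over 1. Stat2, Oas1a, Ifitm1, Ifitm2 and the few further genes given array by array were chosen after their values were seen.

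Alternatives covered scaling, filter, probe set choice, the fit, covariates for the 3′ to 5′ gap, a replicate block and single arrays left out.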

Additional observations from a re-analysis of the deposited data

How the results depend on the processing

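The median member differences from control stayed above 0, and no member was called between the lights, under every alternative run, and Gbp2 under 2954K light kept its call wherever it was tested. Quantile normalisation and centring on array medians gave 3, 4, 0 and 7 members called (2954K, 7378K, 7378K against 2954K, both lights averaged). Counts that moved, in members, were 4 for both lights averaged without an intensity filter; 0, 2 and 3 (2954K, 7378K, averaged) with the filter at the 60th percentile, which leaves Gbp2 and Bst2 untested; 4 averaged with probe sets averaged per gene; 1, 2 and 4 without an intensity trend; 1 and 8 (2954K, 7378K) with only the groups compared; 2 and 3 (7378K, averaged) with the Gapdh and beta-actin covariate and 1 and 2 with the dap covariate; and 4 averaged with the arrays numbered 3 left out, an alternative chosen after seeing the data. Counts over all genes (2954K, 7378K, averaged) were 82, 255 and 245 with probe sets averaged, 101, 207 and 265 without a trend, 102, 136 and 153 with the Gapdh and beta-actin covariate, and 90, 146 and 164 without the arrays numbered 3. They were 68 and 2174 (2954K, 7378K) with only the groups compared and 77 and 115 (7378K, averaged) with the dap covariate. The cause was not tested, except that a stricter filter leaves fewer genes to test. With 1 array left out at a time, members called ranged from 1 to 5 (2954K), 1 to 7 (7378K), 0 to 0 (between the lights) and 2 to 10 (averaged), and genes from 79 to 895, 144 to 1517, 0 to 29 and 164 to 1847. The highest of these counts came without 2954K 2 (5 and 10 members, 895 and 1847 genes) or 2954K 1 (7 members, 1517 and 29 genes), and without control 3 the members numbered 5, 5 and 8. Of the calls with both lights averaged, Ifitm3 was lost without control 1, control 2 or 7378K 1 (adjusted p up to 0.135) and Irf9 without control 1 or 2 (up to 0.0814). A replicate block gave 5, 7, 0 and 9 members, adding Gbp3, Ifit1 and Ifitm3 under 2954K and Gbp3, Ifi35 and Ifit1 under 7378K. Counts over all genes are not given here for the block, the rescalings and the filter settings. Member counts under those settings therefore cannot be set against the whole array. Same-numbered arrays share only a number in the labels. Their deviations from the group means correlated at 0.06 to 0.33 over 9 pairs, not all above 0.1. Over 18 pairs of unlike number the correlations were -0.27 to 0.09. Of 9 arrays, 7 correlated best with one of their own number. The labels state no pairing, so the main fit took none, and whether same-numbered pools were handled together is not known.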

Other observations

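Of the further interferon-induced genes outside the list of members, 14 were too dim to test. Their group mean was above control under both lights for 8 and below it under both for 6 (Oas1b, Oas3, Irgm2, Slfn2, Slfn5 and Apobec3). All 6 LED arrays lay above all controls for 2 of the 14, Nlrc5 and Ube2l6, and below all controls for 0. Nlrc5, the activator of MHC class I genes, read 4.55, 4.75 and 4.81 in controls, 5.60, 6.32 and 6.29 under 2954K, and 5.94, 6.31 and 6.52 under 7378K, so that every LED array lay above every control. Ube2l6, the enzyme that conjugates ISG15, read 2.42, 5.23 and 3.35 in controls, 6.39, 6.59 and 5.74 under 2954K, and 5.75, 5.94 and 5.49 under 7378K, again without overlap. Cxcl10, a chemokine that draws T cells, read 5.46, 5.91 and 2.30 in controls, 5.53, 5.53 and 6.07 under 2954K, and 6.65, 6.37 and 6.87 under 7378K, and only the 7378K arrays lay above all controls. The genes given with values were chosen after their values were seen, and no test was run on them.

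A dim second probe set of Parp14 read 1.85, 1.37 and 2.28 in controls, 5.85, 5.44 and 4.14 under 2954K, and 5.45, 5.56 and 3.41 under 7378K, all below the level required for testing, while the brighter set used above differed by 0.57 under each light.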
